A study of Oryza sativa with 12 samples.

Results

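Flag leaves of rice carrying PSARK::IPT were compared after 3 days without water and under full watering, with 3 Affymetrix rice arrays for each condition. PSARK::IPT joins a promoter that is active in ageing leaves to the gene for isopentenyltransferase, the enzyme that opens cytokinin synthesis. Both groups are labelled as carrying this transgene and differ in the labelled water condition. The plants were 10 weeks old and grown in a greenhouse, and water was withheld before flowering. These 6 arrays belong to a set of 12, the rest of which came from wild-type plants of the same age under the same pair of water conditions. The array titles mark the PSARK::IPT plants as 5T, a tag that the sources used here do not explain, and neither the cultivar nor the number of transgenic lines is given in them. The labels call the 3 replicates of a group biological without saying whether each came from separate plants, so the p-values measure only the spread between these samples, which may be technical.

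Every probe set on the array took part except 123 for the manufacturer's controls and 64 for reporter sequences, which left 57194 of 57381. Of these, 22436 were tied to exactly 1 gene and covered 17905 genes, 2453 of them with a gene or protein name. A gene measured by more than 1 probe set is represented by the brightest, judged by its mean over the 12 arrays. All levels below are log2 RMA values, on which a difference of 1 is a 2-fold change, and a change is the mean with water withheld minus the watered mean. A probe set was called when limma's p-value, adjusted over all 57194 probe sets, was under 0.05. Levels at or below 3.15 in the watered group and 3.34 in the stressed group, the 95th percentile of 106 probe sets for foreign sequences, are treated as background.

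Plants that lose water raise abscisic acid (ABA). The hormone binds receptors that shut off PP2C phosphatases, which frees SAPK kinases to activate bZIP factors and, through them, dehydrins and other LEA proteins. Defence against pathogens runs through other hormones: salicylate acts through NPR1 and its relatives, jasmonate through the removal of JAZ repressors, and rice leaves answer attack with chitinases and with antimicrobial diterpenes, the momilactones and phytocassanes. Cytokinin delays leaf ageing and favours protein synthesis and photosynthesis. The circadian clock sets the time of day at which many of these genes are read.

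Before the results, 2 reporter probe sets put the labels in doubt. RPTR-Os-K01193-1_at read 9.86, 10.37 and 10.26 on the stressed PSARK::IPT arrays and 2.15, 1.99 and 2.11 on the watered ones. The stressed values of RPTR-Os-AF292559-4_s_at were 7.63, 8.49 and 7.79 against 1.96, 2.16 and 2.22. Both probe sets detect sequences foreign to rice, and both groups should carry the same transgene. They were also high on the stressed wild-type arrays, at 8.71 to 9.19 and 7.03 to 8.20, where no transgene is labelled. On the watered wild-type arrays they read 2.06 to 2.38, except on replicate 3. On that array the first probe set read 6.03, while the second, at 3.29, lay below the background level of 3.62 for that group. Apart from that array, their signal went with the labelled water condition and not with the labelled genotype. Whether the labels are at fault was not tested. The groups are the groups as labelled throughout. Every direction, and the reading of each difference as one of water and not of plant material, rests on those labels.

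The Bio spike-in probe sets averaged 8.09 in both groups (SD 0.23 watered and 0.28 stressed, n = 3 each), and the SD over all tested probe sets was 2.18 and 2.21. The 3' actin probe set exceeded the 5' one by 3.49 ± 0.25 watered and 3.86 ± 0.35 stressed. The probe set for 18S rRNA was uneven, at 9.16, 6.55 and 9.78 watered and 7.48, 8.47 and 7.39 stressed, and watered replicate 2 stood lowest. Its part in the results that move with that array was not tested. Photosynthesis genes, the markers of green leaf, had a mean of 10.96 to 11.48 on the watered arrays and 11.07 to 11.33 on the stressed ones. Of these, the chlorophyll-binding protein gene CAB2R read 13.01 and 13.27 and the Rubisco gene OsrbcS 13.04 and 13.30, while RBCS1 lay at background in both groups. Of 21 panicle and floral organ markers 12 lay at background in both groups, as did 5 of 10 anther markers and 16 of 39 markers of dividing cells. The panicle list had a mean of 3.45 to 3.58 watered and 3.39 to 3.48 stressed, the anther list 3.89 to 4.11 and 3.81 to 3.95, and the dividing cell list 4.51 to 4.54 and 4.46 to 4.57. The arrays hold RNA of whole leaf pieces, in which fewer cells of a type and less RNA per cell cannot be told apart.

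Withheld water was followed by rises far more often than by falls among the called probe sets. Limma called 101 of 57194, which is 0.177%: 93 were higher (0.163%) and 8 were lower (0.014%). The changes ran from a fall of 3.32 to a rise of 4.65 on the log2 scale, the median of the rises was 1.84, and 97 of the 101 changed by at least 2-fold. On the watered arrays 41 of the 93 risen probe sets lay at background and were above it only without water, another 3 lay at background in both groups, and 49 were above background in both. Among genes represented by 1 probe set each, 31 of 17905 rose (0.173%) and 3 fell (0.0168%). The called probe sets belonged to 40 genes plus 56 probe sets with no gene listed, and 6 of those genes have a name: NH3, Cht11, HCT1, AMT3-3, OsPht1;11 and OsSPX2.

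The number of calls moved with single arrays. It was 31 without watered replicate 1, 31 without watered replicate 2, 37 without stressed replicate 1, 33 without stressed replicate 3 and 816 without stressed replicate 2. Leaving out watered replicate 3 gave 143 calls, of which 64.3% were higher against 92.1% with all arrays. Of the 101 called probe sets, 27 were called in all 12 alternative fits that kept the full set of probe sets, 24 of them higher and 3 lower. These 12 leave out a fit of only the 15303 probe sets with a mean of at least 5 over the 12 arrays. That fit called 3, all higher, where the full fit called 23 of them higher and 2 lower. The calls reported below as lost for single genes do not count that fit, except for OsSPX2. The stressed and watered arrays did not overlap for 11613 probe sets, or 20.3% of those tested, 5152 with all stressed arrays above (9.01%) and 6461 with all below (11.3%). Among genes the same count was 4565 (25.5%), 2737 above (15.3%) and 1828 below (10.2%), and an unadjusted p under 0.05 was reached by 8.96% of genes upward and 5.07% downward.

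**Figure D1:**
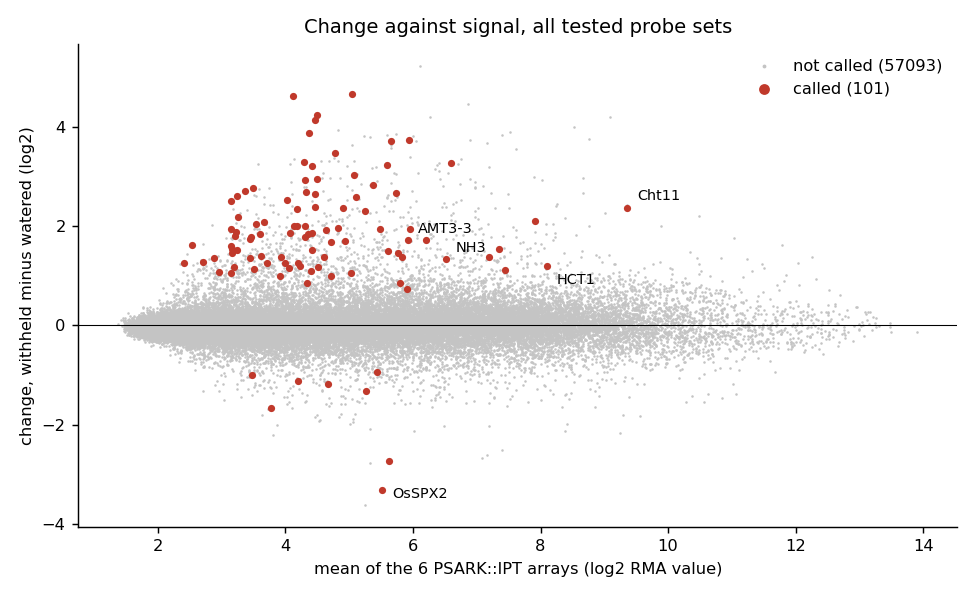
Change on withholding water (vertical axis, log2) against the mean of the 6 PSARK::IPT arrays (horizontal axis, log2 RMA value) for 57194 tested probe sets. The 101 called probe sets are red, 93 of them above 0 and 8 below, and 76 of them have a mean under 5 over all 12 arrays; the named called genes above background are labelled.

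The smallest p-values belonged to probe sets with no gene name. The first, with no gene listed, read 3.21, 3.27 and 3.36 watered and 5.67, 5.68 and 5.66 stressed, a rise of 2.39 (SE 0.15, adjusted p = 1.27e-04). Another, also without a gene, rose from a background level of 2.18 ± 0.14 to 4.11 ± 0.07 and was at least 1.94-fold higher (adjusted p = 3.96e-04). In each case the stressed arrays lay close together and far above the watered ones. The gene LOC4326803 fell from 4.6 ± 0.11 to a background level of 2.94 ± 0.19 and was at least 2.4-fold lower (adjusted p = 4.05e-04). A probe set without a gene fell by 2.73 (SE 0.28, adjusted p = 0.00136), from 7.41, 7.06 and 6.47 to 4.78, 3.98 and 3.99. These 4 probe sets kept their call in all 12 alternative fits.

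The named genes were then read list by list, each list holding the genes of a pathway found by symbol. The lists were chosen with earlier results of these data known, so shares set against all genes describe them and do not test them. Across all 17905 genes the median change was 0.01 and 51.1% read higher with water withheld. Medians above this included 1.02 for chitinases and other pathogenesis-related genes, 0.72 for diterpenoid phytoalexin genes, 0.69 for ribosomal proteins, 0.54 for WRKY factors, 0.43 for the salicylate list, 0.31 for translation factors and 0.13 for jasmonate, while the germin-like proteins, also counted as defence genes, had -0.01. With genes at background put at their bound, or at 0 where both groups were there, the chitinase median was 0.41 and the diterpenoid median 0.37. Medians below it included -0.73 for ABA synthesis and catabolism, -0.31 for drought transcription factors and -0.30 for the clock. In most of these lists no single member was called.

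**Figure D2:**
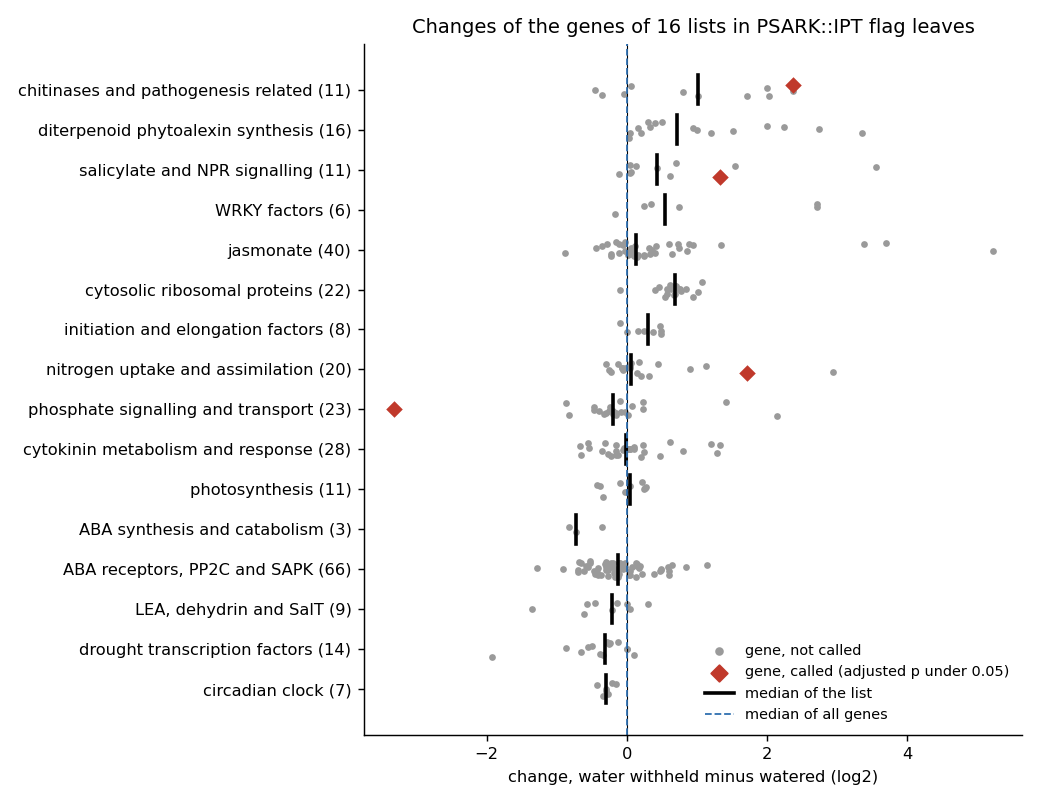
Change of each gene (log2, water withheld minus watered) in 16 gene lists, with the number of genes in brackets. Grey points are genes that were not called and red diamonds the 4 that were, Cht11, NH3, AMT3-3 and OsSPX2; black bars mark list medians, from 1.02 for chitinases and pathogenesis-related genes to -0.73 for ABA synthesis and catabolism, and the dashed line the median of all genes at 0.01.

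Of 10 chitinases, enzymes that cut the chitin of fungal walls, 7 read higher in the stressed leaves and 1, Cht11, rose. Cht11 read 7.96, 7.82 and 8.75 on the watered arrays and 11, 9.73 and 10.91 on the stressed ones, and all stressed values lay above all watered ones. It rose by 2.37 (SE 0.39, adjusted p = 0.0426), which is 5.18-fold. Its change stayed between 2.15 and 2.78 in 12 alternative fits, whose adjusted p ran from 3.78e-04 to 0.276. It was not called without watered replicate 1 or 2, or without stressed replicate 1 or 3 (adjusted p = 0.21 to 0.276), nor after quantile normalization (0.0554) or with the 6 PSARK::IPT arrays fitted alone (0.0973).

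Cht2 had the same change, 2.37 (SE 0.51, adjusted p = 0.113), from 5.91, 5.23 and 6.37 to 8.37, 7.74 and 8.51, again without overlap, and did not pass. Cht1 was higher by 2.03 (SE 0.67, adjusted p = 0.369) and Cht3 by 1.72 (SE 0.54, adjusted p = 0.332). PBZ1, a pathogenesis-related protein of the PR10 family that the plant activator probenazole induces in rice, went from 8.94, 9.48 and 8.25 to 11.31, 10.03 and 11.32, a difference of 2.0 (SE 0.61, adjusted p = 0.308). Stressed replicate 2 gave the lowest stressed value of Cht11, Cht2, Cht1, Cht3 and PBZ1. Cht5 was at least 1.33-fold higher than its background level in the watered leaves (adjusted p = 0.862). The remaining chitinases had small or negative differences: Cht6, Cht9 and Cht10 had changes of -0.04, -0.35 and -0.45, and Cht4, Cht7 and Cht9 lay at background in both groups. Over the list, 8 of 11 genes read higher and 1 was called, against 0.173% of all genes called higher. The median of 1.02 is the measured difference of Cht5 and was 0.41 with Cht5 at its bound. It was 0.70 without stressed replicate 3 and 1.39 without stressed replicate 2.

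The salicylate list was led by NH3, a rice relative of NPR1, the protein through which salicylate switches on defence genes in Arabidopsis. NH3 read 5.85, 5.93 and 5.78 when watered and 7.69, 6.85 and 7.0 without water. The watered arrays lay close together, and the lowest stressed value was above them all. NH3 rose by 1.33 (SE 0.19, adjusted p = 0.0163), or 2.51-fold, and 3 further probe sets of the gene differed in the same direction, by 1.23, 1.23 and 0.58. Its change ran from 1.07 to 1.49 over 12 alternative fits and its adjusted p from 8.08e-04 to 0.101. The call was lost without watered replicate 1 (adjusted p = 0.101), watered replicate 2 (0.078) or stressed replicate 3 (0.0612), and with the 6 PSARK::IPT arrays fitted alone (0.0948).

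The other NPR1 relatives read higher too, by 0.70 for NH1 (SE 0.28), 0.62 for NPR4 (SE 0.20), 0.43 for NH4 and 0.13 for NH2, while NH5 lay at background in both groups. None of these passed the test, and NPR4 was called without stressed replicate 2. PAL06, a phenylalanine ammonia-lyase, the enzyme that opens the phenylpropanoid route to salicylate, lignin and other phenolics, read 4.50, 3.43 and 3.68 watered and 8.19, 6.21 and 7.90 stressed. That is a difference of 3.56 (SE 0.70, adjusted p = 0.0797), and all stressed values exceeded the watered ones. A second probe set of PAL06 gave 3.83 (adjusted p = 0.0631), and the other gene of the family on the list, PAL, was higher by 1.55 (adjusted p = 0.658). The TGA factors, bZIP proteins that bind NPR1, had changes between -0.11 and 0.06. In all, 10 of the 11 genes read higher, with 1 called, against 0.173% of all genes called higher. The number reading higher was 7 without stressed replicate 1, where 4 read lower, and 9 or 10 without each other PSARK::IPT array. The list median was 0.25 without watered replicate 1 and 0.52 without stressed replicate 1.

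HCT1, a hydroxycinnamoyltransferase of the same phenylpropanoid route, stands outside the lists but is among the called genes. It went from 7.51, 7.37 and 7.64 to 8.97, 8.18 and 8.95, and the groups did not overlap. The rise was 1.19 (SE 0.20, adjusted p = 0.0408), with values between 1.06 and 1.45 in 12 alternative fits (adjusted p = 5.74e-04 to 0.276). HCT1 was called without stressed replicate 2 and not without any other PSARK::IPT array (adjusted p = 0.0616 to 0.276), after quantile normalization (0.0532) or with the 6 PSARK::IPT arrays fitted alone (0.119).

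**Figure D3:**
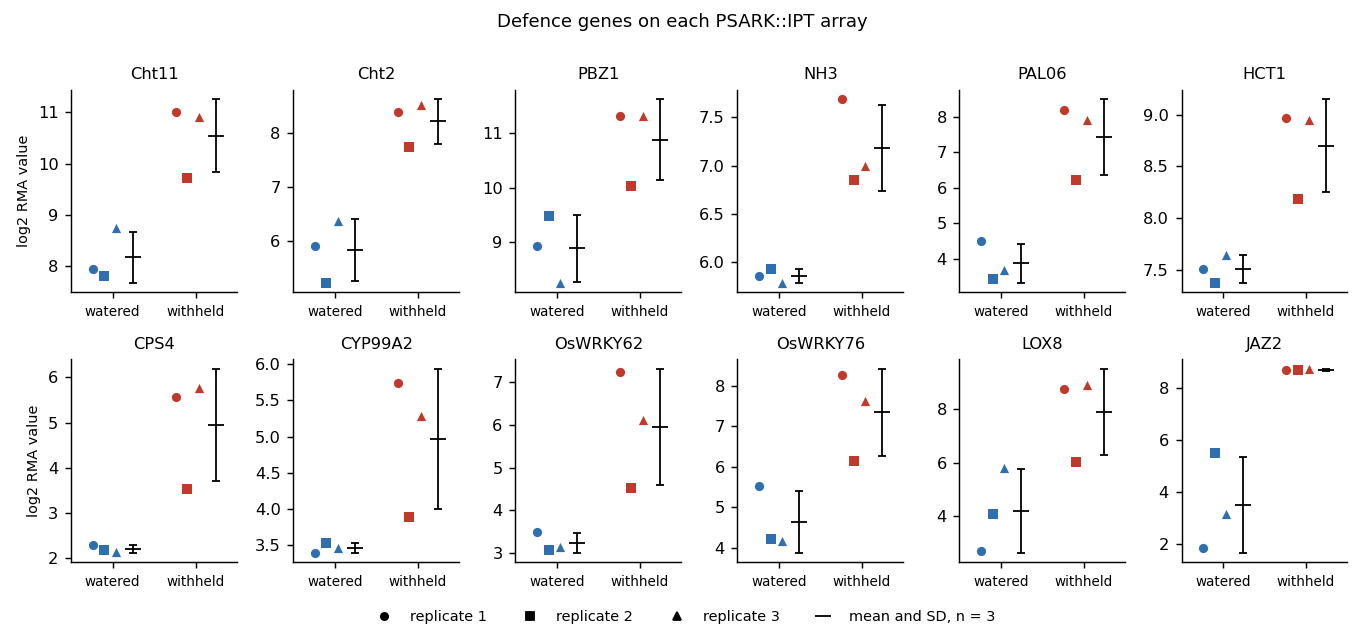
Levels of 12 defence genes (log2 RMA value) on each watered (blue) and stressed (red) PSARK::IPT array, with the mean and SD of 3 arrays as a black bar and a separate vertical scale for each gene. Stressed replicate 2, the red square, is the lowest stressed array for 11 of the 12 genes, whereas JAZ2 read 8.70, 8.70 and 8.76.

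Every one of the 16 diterpenoid phytoalexin genes read higher in the stressed leaves, with changes from 0.03 to 3.36, and none was called. Only 13 of the 16 were above background in at least 1 group. The number reading higher was 14 without watered replicate 3 or stressed replicate 3, and 15 without watered replicate 1 or stressed replicate 2. CPS4, which makes the syn-copalyl diphosphate from which momilactones are built, read 2.30, 2.19 and 2.13 watered, all at background, and 5.57, 3.52 and 5.76 stressed. It was at least 3.48-fold higher (adjusted p = 0.129). The cytochromes P450 CYP99A2 and CYP99A3, which lie with CPS4 in the momilactone gene cluster, were higher by 1.52 (SE 0.41, adjusted p = 0.22) and 1.2 (SE 0.32, adjusted p = 0.225), and their watered arrays were tight, from 3.40 to 3.53 and from 4.10 to 4.17.

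KSL7, the diterpene synthase of the phytocassane route, read 2.29, 2.12 and 2.52 watered and 5.28, 2.55 and 5.09 stressed. It was at least 2.23-fold higher (adjusted p = 0.331). Replicate 2 of the stressed group lay at the level of the watered arrays while the other stressed arrays stood far above them, and a second probe set of KSL7 stayed at background in both groups. The largest difference of the list, singled out after its values were seen, was that of the P450 CYP71Z7, which read 7.47, 4.13 and 7.72 stressed against a background level of 3.08 ± 0.16 watered and was at least 9.79-fold higher (adjusted p = 0.385). The stressed and watered arrays did not overlap for 10 of the 16 genes, all upward, against 15.3% of all genes. Without stressed replicate 2 the list median was 0.86, with 5 of 16 members called, where 400 of 17905 genes were called higher (2.23%). The list mean on that array was 4.03, against 5.0 and 5.10 on the other stressed arrays and 3.56 to 3.71 on the watered ones.

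Of 6 WRKY factors, DNA-binding proteins of the defence response, OsWRKY62 and OsWRKY76 differed most. Both are known in rice as repressors of defence that pathogens induce. OsWRKY62 read 3.49, 3.06 and 3.15 watered and 7.23, 4.51 and 6.10 stressed, and OsWRKY76 5.52, 4.22 and 4.17 against 8.26, 6.15 and 7.61. Each differed by 2.71 (SE 0.69, adjusted p = 0.183 and 0.187) without overlap of the groups, and each was called without stressed replicate 2 (adjusted p = 0.022 and 0.044). OsWRKY24, WRKY51, OsWRKY71 and WRKY9 had changes of 0.74, 0.35, 0.25 and -0.17.

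The jasmonate list of 40 genes had a median of 0.13, 28 members higher and none called, but it held the largest change of any probe set in the comparison. JAZ2, a repressor of jasmonate signalling whose transcript jasmonate itself induces, read 8.70, 8.70 and 8.76 on the stressed arrays and 1.85, 5.49 and 3.17 on the watered ones. The spread lay in the watered group alone, whose SD was 1.85 against 0.04. Its change was 5.22 (SE 1.18, adjusted p = 0.131).

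LOX8 and LOX9, lipoxygenases that open jasmonate synthesis, were higher by 3.70 (SE 0.98, adjusted p = 0.217) and 3.38 (SE 0.98, adjusted p = 0.269). For LOX8 the values were 2.69, 4.09 and 5.81 watered against 8.76, 6.03 and 8.89 stressed, so the highest watered and the lowest stressed array nearly met. Of 13 JAZ genes 12 read higher, with a median of 0.42, and all 5 lipoxygenases did. JAZ1, the brightest member of the list, had a change of -0.11, and the receptor genes COI1, COI1B and COI2 had changes of -0.11, -0.03 and 0.02. OPR1, which encodes an oxophytodienoate reductase, was lower by 0.88 (SE 0.70).

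The ribosomal proteins showed small and even differences. The list holds 22 nuclear genes with the symbols of cytosolic ribosomal proteins, counting RACK1A and RACK1B, scaffold proteins of the small subunit. Of these, 21 read higher in the stressed leaves, with a median of 0.69, a highest change of 1.07 for RPL18 and a single negative value of -0.09 for RPL27. None was called. The stressed arrays lay above all watered ones for 19 of the 22, against 15.3% of all genes, and 11 reached an unadjusted p under 0.05, against 8.96%. The mean of the list was 9.45, 9.05 and 9.65 watered and 10.18, 9.85 and 10.12 stressed, so every stressed array exceeded every watered one. The number of members reading higher was 21 under both other scalings and without each array in turn, and the median ran from 0.53 without watered replicate 2 to 0.80 without watered replicate 3 or stressed replicate 2.

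RPL9 had the smallest p of these genes and went from 9.92, 9.31 and 10.15 to 10.89, 10.43 and 10.92. The difference was 0.95 (SE 0.28, adjusted p = 0.283), which is 1.93-fold. RPL11 was higher by 1.02 (SE 0.32), RPL5 by 0.84 (SE 0.31) and RPS21 by 0.46 (SE 0.16), the last with watered values of 10.89 to 10.98 and stressed values of 11.31 to 11.50. Proteins that start and extend translation had smaller differences of the same sign. Elongation factor EF-1-alpha, which brings aminoacyl-tRNA to the ribosome, read 11.75, 11.61 and 11.90 watered and 12.28, 12.17 and 12.30 stressed, a difference of 0.49 (SE 0.26, adjusted p = 0.732). The helicase eIF-4A-1 was higher by 0.49 (SE 0.25), EF-1-beta by 0.48 (SE 0.28) and the initiation factor subunit eIF3k by 0.38 (SE 0.18). The cap-binding protein eIF-4E-1 had a change of -0.09, and 7 of the 8 factors read higher, with none called.

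**Figure D4:**
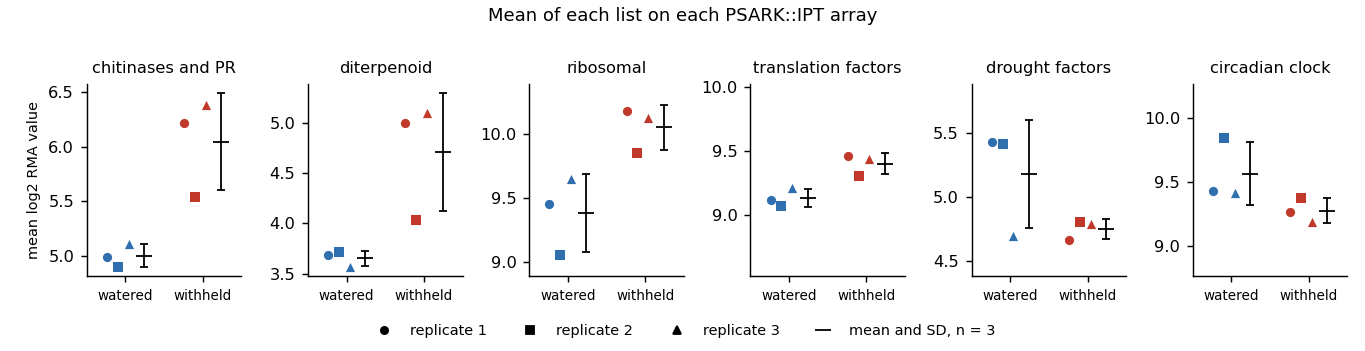
Mean log2 RMA value of 6 gene lists on each watered (blue) and stressed (red) PSARK::IPT array, with the mean and SD of 3 arrays as a black bar and a separate vertical scale for each list. Every stressed array lies above every watered one for the chitinase, diterpenoid, ribosomal and translation lists; for the drought factors watered replicate 3 lies at 4.69, among the stressed arrays at 4.66 to 4.80, and for the clock all stressed arrays lie below all watered ones.

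No gene on the ABA lists was called. All 3 genes of ABA synthesis and catabolism had negative values. OsZEP1, the zeaxanthin epoxidase of an early step towards ABA, read 10.98, 11.42 and 10.80 watered and 10.30, 10.54 and 10.16 stressed. All stressed values lay below the watered ones, with a difference of -0.73 (SE 0.26, adjusted p = 0.416). ABA8OX1 and ABA8OX2, hydroxylases that break ABA down, had changes of -0.82 (SE 0.66) and -0.35 (SE 0.18). The ABA8OX1 value rested on the watered arrays, which read 5.06, 7.07 and 3.49. Without watered replicate 2 its change was 0.11.

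OsPP2C06, a PP2C phosphatase also listed as OsABIL1, had the smallest p of all named genes that were lower and not called. It read 9.89, 9.47 and 8.92 watered and 7.91, 8.50 and 8.01 stressed, a difference of -1.28 (SE 0.22, adjusted p = 0.0525) without overlap. It was called without stressed replicate 2 (adjusted p = 0.00934) and without watered replicate 3 (adjusted p = 0.0118). OsPP2C01 was lower by 0.70 (SE 0.19, adjusted p = 0.224) and OsPP2C05 by 0.53 (SE 0.17, adjusted p = 0.359). Across 55 PP2C genes, most of which are not tied to ABA, 20 read higher and 35 lower, with a median of -0.11 and a range from -1.28 to 1.14.

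Of 10 SAPK kinases 9 had a negative value, with a median of -0.42, and none was called. OsSAPK7 went from 5.55 to 4.64 and OsSAPK9 from 5.20 to 4.52, both without overlap of the arrays, while OsSAPK3 had a change of 0.18. The mean over the family was 7.10, 7.37 and 6.89 watered and 6.60, 6.88 and 6.67 stressed, so that stressed replicate 2 and watered replicate 3 nearly met. Of the ABA receptors 1 gene was named on the array, OsPYL11, with a change of 0.14. The median of the whole list of receptors, PP2C and SAPK genes, which the PP2C genes dominate, was -0.13 with 22 of 66 higher, and it was -0.02 without watered replicate 2 and -0.27 without watered replicate 3.

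Dhn1, a dehydrin that binds water and membranes in drying cells, was the brightest gene of the LEA list. It read 9.77, 9.13 and 8.56 watered and 7.75, 7.85 and 7.80 stressed, a difference of -1.35 (SE 0.32, adjusted p = 0.152) without overlap. RAB21, another dehydrin, read 4.99, 3.09 and 4.30 against 3.66, 3.04 and 3.83, and the groups overlapped. RAB16B, RAB16D, rab25, EM and LEA19 lay at background in both groups, RAB16C went from 4.46 to 4.02, and salT, a lectin induced by salt, had a change of 0.31.

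Among the drought factors, OsbZIP23, an activator of ABA-responsive genes in rice, read 10.21, 9.33 and 8.62 watered and 8.70, 8.85 and 8.96 stressed. Its groups overlapped, because watered replicate 3 read lowest of all 6. The homeodomain factors Hox22 and HOX24 had changes of -0.87 (SE 0.37, adjusted p = 0.558) and -1.92 (SE 0.99, adjusted p = 0.702). HOX24 read 8.60, 4.92 and 2.96 on the watered arrays, a wider spread than between the groups, and 3.14, 4.16 and 3.40 on the stressed ones. DREB2A, which binds the dehydration-responsive element, read 3.72 in both groups. Of the 14 factors 3 read higher, and the list median of -0.31 was -0.19 without watered replicate 2 and -0.41 without watered replicate 3.

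The NAC factors had a median of -0.11. NAC010 was lower by 0.75 (SE 0.40, adjusted p = 0.739) and NAC2 by 0.74 (SE 0.35, adjusted p = 0.654). SNAC2, a stress NAC of rice, read 9.70, 10.15 and 8.77 watered and 9.19, 8.76 and 9.02 stressed, with overlap at watered replicate 3. Without that array the list median was -0.38.

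All 7 clock genes read lower in the stressed leaves, and none passed the test. The changes were -0.42 for OsPCL1, -0.34 for OsGI, -0.30 for OsLHY and OsPRR37, -0.27 for OsPRR73, -0.21 for OsPRR95 and -0.16 for OsPRR1. They include the morning gene OsLHY as well as the evening genes OsGI, OsPRR1 and OsPCL1. OsGI read 11.46, 11.77 and 11.48 watered and 11.08, 11.47 and 11.14 stressed, a difference of -0.34 (SE 0.22, adjusted p = 0.846). OsLHY read 10.51, 10.87 and 10.46 against 10.39, 10.49 and 10.06. In both cases stressed replicate 2 reached into the watered range, and no clock gene separated the groups.

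The mean of the clock list did separate them narrowly, at 9.43, 9.85 and 9.42 watered and 9.27, 9.38 and 9.19 stressed. No member reached an unadjusted p under 0.05. The number reading lower was 7 under both other scalings and 6 without watered replicate 2, where the median was -0.17. The labels used here give no time of day for the harvest of either group. Of 12 flowering regulators 6 read higher and 6 lower: the red-light receptor PhyB was higher by 0.51 (SE 0.20, adjusted p = 0.476) and MADS50, an activator of flowering, by 0.73 (SE 0.34, adjusted p = 0.638), while Hd1, a day-length regulator, went from 3.50 to a background level of 2.95.

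Of the named calls, OsSPX2 came from the phosphate list and AMT3-3 from the nitrogen list. The phosphate transporter OsPht1;11 was called through a probe set that is not the one representing the gene. OsSPX2, an SPX-domain protein that senses the phosphate state of the cell and restrains the phosphate starvation factor PHR2, read 7.42, 7.85 and 6.29 watered and 3.78, 4.22 and 3.58 stressed. Every stressed value lay far below every watered one. OsSPX2 fell by 3.32 (SE 0.55, adjusted p = 0.0408), which is 10.0-fold and the largest fall among the called probe sets. Over 12 alternative fits the change ran from -3.77 to -2.99 and the adjusted p from 1.33e-04 to 0.259. OsSPX2 was not called without watered replicate 1 or 2, or without stressed replicate 1 or 3 (adjusted p = 0.189 to 0.259), after quantile normalization (0.105) or with the replicate number as a block (0.0736). Nor was OsSPX2 called in the fit of probe sets with a mean of at least 5, where every call was a rise. The other SPX genes did not follow: OsSPX1 and OsSPX4 had changes of -0.25 and -0.40, and OsSPX3 and OsSPX5 lay at background.

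Of the phosphate transporters, OsPht1;1 read 5.75, 6.03 and 6.07 watered and 8.49, 7.22 and 8.58 stressed, a difference of 2.15 (SE 0.41, adjusted p = 0.0741) without overlap. A second probe set of OsPht1;1 went the other way, from 7.25 to 5.87, so the gene's direction depends on the probe set read. OsPht1;8 was higher by 1.41 (SE 0.47, adjusted p = 0.381), and a second probe set gave 1.51. OsPht1;4 was lower by 0.83 (SE 0.41, adjusted p = 0.681). The called probe set of OsPht1;11 rose from 2.06 to 3.34 (adjusted p = 0.0132), at background in both groups. The 3 other probe sets of that gene lay at background too and had changes of -0.24, -0.01 and 0.44, so no fold is given. The call was lost without watered replicate 1 or 2 or stressed replicate 3 (adjusted p = 0.0586 to 0.0855). PHR2 and OsPHR3 each had a change of -0.20, and MGD3, a galactolipid synthase that replaces phospholipid when phosphate is short, was lower by 0.86 (SE 0.36, adjusted p = 0.559). The phosphate list as a whole had a median of -0.20, with 6 of 23 genes higher, and 1 of its genes was called lower, against 0.0168% of all genes. At least 1 group lay at background for 8 of the 23. With those genes put at their bound, or at 0 where there was none, the list median was -0.02.

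AMT3-3, an ammonium transporter, read 4.62, 5.22 and 5.35 watered and 7.0, 6.1 and 7.23 stressed, with no overlap. It rose by 1.71 (SE 0.27, adjusted p = 0.0293), or 3.28-fold. The change was between 1.49 and 2.07 in 12 alternative fits, with adjusted p from 4.98e-04 to 0.182, and the call was lost without watered replicate 1 or 2, or stressed replicate 1 or 3 (adjusted p = 0.0972 to 0.182), and with the 6 PSARK::IPT arrays fitted alone (0.12). AMT3-2 read 4.76, 5.30 and 4.77 against 9.33, 6.03 and 8.30, a difference of 2.94 (SE 0.89, adjusted p = 0.295), and AMT2-1 was higher by 0.90 (SE 0.21, adjusted p = 0.146). AMT3-1, of the same subfamily, had a change of -0.07 and the bright AMT1-1 one of -0.05. The nitrogen list as a whole had 12 of 20 genes higher and a median of 0.06. Among its genes of assimilation, chosen after their values were seen, nitrate reductase NIA1 had a change of -0.30, plastid glutamine synthetase GS2 of -0.23 and cytosolic GLN1-1 of -0.03.

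**Figure D5:**
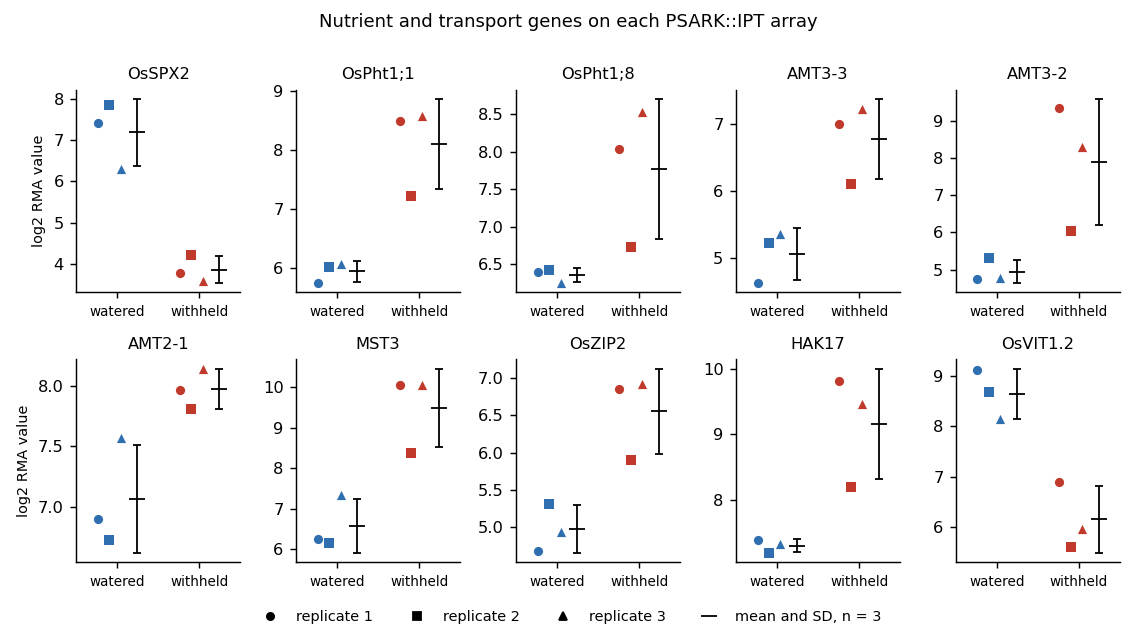
Levels of 10 nutrient and transport genes (log2 RMA value) on each watered (blue) and stressed (red) PSARK::IPT array, with the mean and SD of 3 arrays as a black bar and a separate vertical scale for each gene. OsSPX2 and OsVIT1.2 are lower on all stressed arrays and the other 8 higher; for OsPht1;8 stressed replicate 2 lies at 6.73, close to the watered arrays at 6.25 to 6.42.

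Further transporters were among the named genes with the smallest p that were not called. MST3, a monosaccharide transporter, read 6.24, 6.14 and 7.34 watered and 10.05, 8.38 and 10.05 stressed, a difference of 2.92 (SE 0.51, adjusted p = 0.0515). It was called without watered replicate 3 (adjusted p = 0.0366) and without stressed replicate 2 (adjusted p = 0.00332). OsZIP2, of the zinc and iron transporter family, went from 4.97 ± 0.32 to 6.55 ± 0.57 (adjusted p = 0.0569), and HAK17, of the potassium transporter family, from 7.30 ± 0.10 to 9.16 ± 0.85 (adjusted p = 0.0654). OsVIT1.2, which loads iron into the vacuole, went the other way, from 9.13, 8.69 and 8.14 to 6.89, 5.61 and 5.96, a difference of -2.50 (SE 0.45, adjusted p = 0.0599). The groups of these 4 genes did not overlap, which was a condition for naming them.

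The remaining named genes with the smallest p among higher ones were OsNrx1-1, a nucleoredoxin, PSK4, a precursor of the growth peptide phytosulfokine, and BGLU26, a beta-glucosidase. OsNrx1-1 read 5.02, 4.61 and 4.81 watered and 6.78, 6.40 and 7.24 stressed (difference 1.99, SE 0.38, adjusted p = 0.0761). PSK4 was higher by 2.40 (SE 0.47, adjusted p = 0.0799), and BGLU26 was at least 2.77-fold higher (adjusted p = 0.0846). Without stressed replicate 2 OsNrx1-1, PSK4, BGLU26, OsZIP2, HAK17, OsPht1;1 and PAL06 were all called.

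The named genes with the smallest p among lower ones had modest differences apart from OsSPX2, OsVIT1.2, Dhn1 and OsPP2C06. ISAP1, a zinc finger protein that stress induces in rice, read 8.79, 8.98 and 7.99 watered and 7.49, 7.65 and 7.73 stressed, a difference of -0.96 (SE 0.22, adjusted p = 0.133). It was called without watered replicate 3 (change -1.26, adjusted p = 0.0101), as was PSS2, a phosphatidylserine synthase (adjusted p = 0.0431), whose change was -0.87 with all arrays. BADH, which makes the osmoprotectant glycine betaine, was lower by 0.54 (SE 0.13, adjusted p = 0.144), with watered values of 8.0 to 8.24 and stressed values of 7.48 to 7.72. OsCASPL5C1, a CASP-like membrane protein, was lower by 0.83 (SE 0.19), and the protein kinase CIPK8 by 0.65 (SE 0.16). LYP4, a receptor for microbial wall fragments, was at least 1.01-fold lower, from 3.35 to a background level of 2.71 (adjusted p = 0.131).

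Sugar genes lay among them as well. OsSUT1, which loads sucrose into the phloem, read 8.18, 7.93 and 7.88 watered and 7.28, 7.47 and 7.52 stressed, a difference of -0.57 (SE 0.14, adjusted p = 0.182). The sugar transporter listed as MtN3-like, with the aliases OsSWEET6a and OsSWEET6b, was lower by 0.63 (SE 0.15, adjusted p = 0.167). Starch synthase SSI went from 8.99, 10.11 and 8.46 to 7.49, 8.42 and 7.20, a difference of -1.48 (SE 0.46, adjusted p = 0.327), and did not overlap. Of 42 sucrose, starch and trehalose genes 17 read higher, with a median of -0.06 and none called.

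Cytokinin genes, the pathway the transgene feeds, showed no common direction. Of 28 genes of cytokinin metabolism and response 14 read higher and 14 lower, with a median of -0.01 that was 0.02 with array medians made equal. LOGL9, of a family of enzymes that release active cytokinin, was higher by 1.33 (SE 0.49, adjusted p = 0.454) and LOGL7 lower by 0.65 (SE 0.28, adjusted p = 0.57). CKX5, a cytokinin oxidase, went from 3.72 to 3.37. The type-A response regulators OsRR6, OsRR9 and OsRR2, which cytokinin induces, were higher by 1.2 (SE 0.52), 1.29 (SE 0.78) and 0.80 (SE 0.37). Of 6 OsRR genes 4 read higher and 2 lower, the lowest change was -0.31, and none was called. Watered replicate 3 stood apart here: the mean over 6 OsRR genes was 4.88, 5.38 and 6.48 on the watered arrays and 6.14 to 6.2 on the stressed ones.

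Leaf function genes were close between the groups. The 11 photosynthesis genes had a median of 0.04 and a range from -0.43 to 0.27. LFNR1, the ferredoxin reductase at the end of photosynthetic electron transport, read 12.03 ± 0.12 watered and 11.69 ± 0.13 stressed (adjusted p = 0.517). Chlorophyll synthesis had 9 of 10 genes higher with a median of 0.28, which was -0.08 without watered replicate 2. Of the genes of ageing leaves, NYC1, a chlorophyll b reductase, went from 9.26 ± 0.13 to 8.62 ± 0.07 (adjusted p = 0.537) without overlap, whereas OsSAG12, a protease gene used as a marker of leaf senescence, read 3.88 ± 0.08 and 3.92 ± 0.07.

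The same contrast in wild type rests on 6 other arrays, whose controls differed between the water conditions. Their Bio spike-in probe sets averaged 10.58 watered and 11.5 stressed, and the 25S rRNA probe set 5.33 and 6.15. What this does to the wild-type changes, or to comparisons with them, was not tested. Of the 93 risen probe sets 84 had a positive change in wild type and of the 8 fallen ones 6 had a negative one, against 55.2% and 44.8% of all 57194 probe sets. Of the 101, 20 were called in wild type in the same direction, where 0.42% of all probe sets were called. Both contrasts use the same estimate of the spread for a probe set, so their calls are not independent. OsSPX2 had a change of -3.30 in wild type (SE 0.55), next to -3.32. Cht11 had a wild-type change of 1.69 (SE 0.39) and AMT3-3 of 1.26 (SE 0.27). NH3 and HCT1 had values of -0.09 (SE 0.19) and -0.12 (SE 0.20) there.

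Limma's test of the difference between the stress effects called 0 of 57194 probe sets, with 14.3% at an unadjusted p under 0.05, so nothing above is shown to be particular to PSARK::IPT. The difference was 1.42 for NH3 (SE 0.27, adjusted p = 0.201), 1.32 for HCT1 (SE 0.28, adjusted p = 0.211) and -2.61 for OsVIT1.2 (SE 0.64, adjusted p = 0.231). With limma's trend and robust options 5 probe sets were called for this difference, and without stressed replicate 2 of PSARK::IPT 40 were. The median change of ribosomal proteins was -0.15 in wild type against 0.69 in PSARK::IPT, a difference that was not tested over the list, and the median over all genes was -0.18 against 0.01.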

How the data were processed

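Total RNA of flag leaves was hybridised to Affymetrix rice arrays, 1 per sample. The authors deposited log2 values from RMA, a method named in the submitters' processing notes that removes background, evens out the arrays and reduces each probe set to 1 value. No software or version is given in the sources used here. The values were not filtered. Gene names came from the array's annotation and the RefSeq table of assembly ASM3414082v1, used for names only; all 17905 gene identifiers were found in it, 95 probe sets had several genes and 34663 none listed.

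Limma 3.58.1 in R 4.3.3 (lmFit, eBayes) was fitted over all 12 arrays with 1 mean per group, which share 1 estimate of the spread, and p-values were Benjamini-Hochberg adjusted over 57194 probe sets. The fit was tested on simulated data with noise drawn independently for each value. That test does not bear on deviations shared across an array. Errors of changes are limma's standard errors and errors of means are SDs over 3 arrays. The number of arrays limits the precision: the smallest two-sided p of an exact test of 3 against 3 is 0.1. A fold against a group at background is a lower bound, taken against that level.

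The members and the 33 lists, which held 670 genes by symbol after 47 were dropped for aliases of other families, were chosen with earlier results of these data known. Named genes were the called ones, the 12 with the smallest p in each direction among those whose arrays did not overlap, up to 4 with the smallest p per list and members of small families, and at most 2 unnamed rises and 2 unnamed falls. CYP71Z7, RPL18, RPL27, eIF-4E-1, OPR1, OsbZIP23, HOX24, DREB2A, MGD3, OsPht1;4, NIA1, GS2 and GLN1-1 were chosen after their values were seen. Alternatives were equal array medians, quantile normalization, limma's trend and robust options, array weights, the replicate number as a block, the 6 PSARK::IPT arrays alone, a mean of at least 5, at least 2-fold, the mean over a gene's probe sets, and each array left out.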

Additional observations from a re-analysis of the deposited data

Results flagged for a closer look

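The reporter probe sets lie outside the main measurement, and 2 of them carried signal on the stressed PSARK::IPT arrays that was absent from the watered ones. RPTR-Os-K01193-1_at averaged 10.16 ± 0.27 (SD, n = 3) on the arrays labelled PSARK::IPT without water, against 2.08 ± 0.08 on the watered arrays and a background level of 3.34. RPTR-Os-AF292559-4_s_at averaged 7.97 ± 0.46 against 2.11 ± 0.13. Other reporter probe sets for the same sequence, RPTR-Os-AF292559-1_at, -2_s_at and -3_s_at, averaged 1.86, 1.59 and 1.88 on the stressed arrays, below background. On the wild-type arrays labelled as stressed the same 2 probe sets averaged 8.98 and 7.68, and watered wild-type replicate 3 read 6.03 for RPTR-Os-K01193-1_at against 2.06 and 2.35 on its fellow arrays. What this says about the labels was not tested.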

How the results depend on the processing

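The count of 101 called probe sets was 117 with array medians made equal, 142 with limma's trend and robust options, 101 with the 6 PSARK::IPT arrays alone (57 shared) and 97 at 2-fold or more. It was 56 after quantile normalization, 4970 with array weights (58.5% higher against 92.1%), 208 with the replicate number as a block and 3 among probe sets with a mean of at least 5. Leaving out 1 array gave 31 to 816. The replicate numbers were not taken as pairs: same-numbered arrays deviated together with correlations of 0.1316, 0.081 and 0.1376, although each array correlated best with its own number. The difference between the stress effects went from 0 calls to 5 with trend and robust options and 0 to 40 with 1 array left out. The cause was not tested. None of the 101 called probe sets changed sign in the 12 alternative fits without a filter. For all 101 the stressed and watered arrays did not overlap, so leaving out 1 array could not turn a sign. Nor could a fit that keeps the group means. Of 140 uncalled named genes, 85 were called with array weights and 24 without stressed replicate 2. Array weights called 4970 of all 57194 tested probe sets. Without stressed replicate 2, 2.23% of all genes were called higher and 0.296% lower. The 140 genes had been picked for small p in the same data. Their higher rate of gained calls was therefore built in by that choice and says nothing about the genes. The list median turned sign in 11 of 33 lists. In 46 of the 101 calls at least 1 group lay at background.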

Other observations

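Hormone lists beyond those above had medians near 0. Of 59 auxin response genes 40 read lower, with a median of -0.09 and none called; IAA13 and IAA2, repressors of auxin response, were lower by 1.03 (SE 0.35, adjusted p = 0.406) and 0.83 (SE 0.25, adjusted p = 0.31), and GH3.2, which conjugates auxin to amino acids, was higher by 1.17 (SE 0.41, adjusted p = 0.42). ACS2, an enzyme of ethylene synthesis, read 3.11, 3.20 and 2.98 watered and 4.08, 3.33 and 4.42 stressed and was at least 1.73-fold higher (adjusted p = 0.203). Of the ethylene receptors ETR3 was higher by 0.41 (SE 0.13) and ERS2 lower by 0.66 (SE 0.26). The 10 gibberellin genes had a median of 0.05 and the 14 brassinosteroid genes one of -0.01.

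CatA, a catalase that removes hydrogen peroxide, read 10.49, 10.44 and 11.99 watered and 12.62, 12.18 and 12.95 stressed, a difference of 1.61 (SE 0.36, adjusted p = 0.131); it was called without watered replicate 3 (change 2.12, adjusted p = 0.00713). Ascorbate peroxidases, which share that task, had smaller differences, -0.21 for APX2 and 0.31 for APX6. The small heat shock protein HSP17.9B went from 8.19, 8.36 and 8.11 to 10.36, 8.76 and 9.68 (adjusted p = 0.151), while HSP22.3 was lower by 0.61 (SE 0.19), and 45 heat shock genes had a median of -0.03. The aquaporin NIP1-1 was higher by 1.53 (SE 0.49, adjusted p = 0.346), and the plasma membrane water channel OsPIP2;7 lower by 0.36 (SE 0.18), among 25 aquaporins with a median of -0.14. CESA5 and CESA8, cellulose synthases, were lower by 0.80 (SE 0.29) and 0.88 (SE 0.44). The germin-like genes were split, with GER4 at 5.19, 3.21 and 2.98 watered and at background when stressed, and GLP2 higher from a background level. HSP17.9B, NIP1-1 and ACS2 were each called without stressed replicate 2, which gave the lowest stressed value of all 3.

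The spread between arrays lay on different sides in different lists. The diterpenoid list mean had an SD of 0.59 over the 3 stressed arrays and 0.08 over the watered ones, and the mean of the drought factors had 0.08 over the stressed arrays and 0.42 over the watered ones.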
